A study of Rattus norvegicus with 9 samples.

Results

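Ligustilide, a phthalide found in the essential oils of Angelica and Ligusticum roots, was compared with olive oil in rats that had first received 2 drugs. The comparison took 6 of the 9 libraries of messenger RNA in the series, chosen by the groups in their sample titles, and 14229 genes that passed a filter on low counts. The 3 LER+LIG libraries came from 10-week-old female Sprague-Dawley rats that had daily hydroxyurea by gavage (450 mg/kg, 10 days) and daily subcutaneous adrenaline (0.3 mg/kg, days 4 to 10). These rats were then mated, and from gestation day 0.5 they had a daily gavage of LIG (40 mg/kg), which the series title identifies as ligustilide. The 3 LER libraries came from rats given the same hydroxyurea and adrenaline and then olive oil. Hydroxyurea and adrenaline are therefore shared by both groups, and the difference between them is LIG against oil. The remaining 3 libraries, from NER rats given saline and then olive oil, entered the fit and are cited only for reference. The sample titles call the tissue endometrial and the source is given as uterus. The day of collection is not given in the sources used. No label states that the libraries of a group come from different animals, and the p-values therefore reflect library-to-library spread, which may be technical.

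The uterine lining accepts an embryo only during a short period after ovulation, set by oestrogen and then progesterone. In rodents, nidatory oestrogen raises leukaemia inhibitory factor, LIF, in the glands, and LIF signals through its receptor and gp130 to STAT3 in the luminal epithelium. SOCS3 is a target of STAT3 that shuts the signal off. Progesterone acts on the epithelium through Indian hedgehog, which is read in the stroma by PTCH1 and GLI1. The epithelium rests on a basement membrane of type IV collagen, laminins and nidogens, which also surrounds vessels and smooth muscle cells, and the fluid in the lumen depends on CFTR and on the epithelial sodium channel.

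Depth was even, with 13241537 to 15354085 counts per library. Libraries within the LER+LIG group were unlike one another. On log2 CPM (counts scaled to library size) over the tested genes, LER+LIG 1 correlated with LER+LIG 2 at r = 0.827 and with LER+LIG 3 at r = 0.854, whereas the 3 LER libraries correlated with each other at 0.964 to 0.975; these are correlations across genes within libraries, and genes are not independent replicates. LER+LIG 3 was closest to NER 3, at r = 0.952. The first principal component, with 44.4% of the variance, placed LER+LIG 2, LER+LIG 3 and NER 3 at 71.3, 74 and 84.5 and the other 6 libraries between -68.1 and -28.7. The second, with 20.5%, placed LER+LIG 1 at -92.4 and the other 8 libraries between -29.7 and 35.8. LER+LIG 1 also had the fewest genes with counts, 14944 against 15468 to 16198 elsewhere. Mitochondrially encoded genes took 4.06%, 5.46% and 4.51% of the counts in the LER+LIG libraries and 2.14%, 3.43% and 3.91% in the LER libraries. In NER 1, 2 and 3 they took 5.04%, 3.26% and 2.68%. Counts of genes without overlap rise by construction when a library is left out. Over all genes they were 3275 higher and 3355 lower without LER+LIG 1. They were 2443 higher and 2722 lower without LER+LIG 2, and 2151 higher and 2155 lower without LER+LIG 3.

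Differences from LER also ran with gene length in LER+LIG 1. Genes were split into 10 bins by length, and its median difference from the LER mean was 0.55 on the log2 scale in the bin of shortest genes and -0.52 in the bin of longest genes. LER+LIG 2 and LER+LIG 3 ran the other way and less steeply, with -0.21 and -0.22 in the shortest bin and 0.16 and 0.17 in the longest. The median length was 2470 bases for genes higher without overlap, 3128 bases for genes lower without overlap, and 2726 bases for all tested genes. The part of length in the results below was examined with an offset for length only, given for the lists whose printed count it moved by over 1.5 times.

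**Figure D1:**
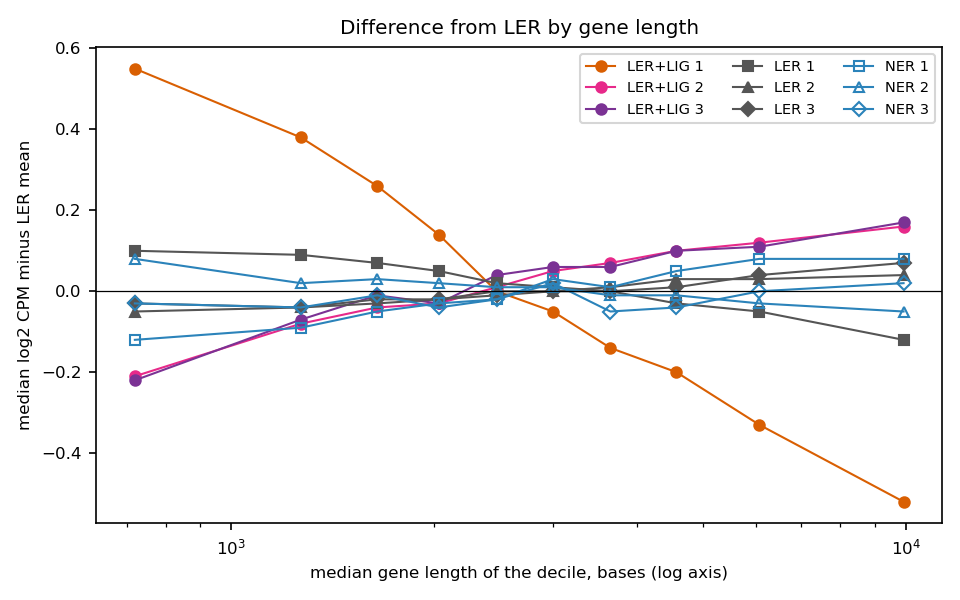
Median log2 CPM minus the LER mean (vertical axis) in 10 bins of the tested genes ordered by gene length (horizontal axis, bases, log axis), with 1 line per library. LER+LIG 1 runs from 0.55 in the shortest bin to -0.52 in the longest, while the LER and NER lines stay within 0.12 of 0.

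No gene passed edgeR's quasi-likelihood test at an adjusted p under 0.05, with 0 of 14229 called higher and 0 called lower (0% each). The smallest adjusted p was 0.0515, for RT1-A1. At an unadjusted p under 0.05 there were 1026 genes higher (7.21%) and 751 lower (5.28%), where 711.5 in all would be expected if nothing differed. The DESeq2 Wald test, run as an alternative, called 148 genes higher (0.968% of 15293) and 151 lower (0.987%) at an adjusted p under 0.05, which among the genes that edgeR tested were 145 higher (1.02%) and 149 lower (1.05%). Of these 294 genes (2.07%), 279 had no overlap between the groups. As a plain description, the 3 LER+LIG libraries all lay above the 3 LER libraries in 1480 genes (10.4%). In 1430 genes (10.0%) they all lay below. These shares are the background for the counts below. Counts with a LER+LIG library left out have as background the larger counts given above for that library. The 3 LER+LIG libraries lay above all 6 LER and NER libraries in 432 genes (3.04%) and below all 6 in 417 (2.93%). The log2 fold change was above 0 in 54.9% of genes and below 0 in 45.1%, with a median of 0.07. Simulated counts were drawn independently for each gene, with the gene's estimated spread the same in all groups and 200 genes changed. On them the edgeR procedure recovered 3.12% of genes given a log2 fold of 1, 50% given 2 and 75.8% given 3. The simulation held no shift shared by many genes of a library, such as the length trend of LER+LIG 1. Recovery in the real libraries may therefore differ.

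The genes of smallest p that did not overlap between the groups were taken as the leading differences, 10 in each direction, with none of them called by edgeR and all of them called by DESeq2.

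**Figure D2:**
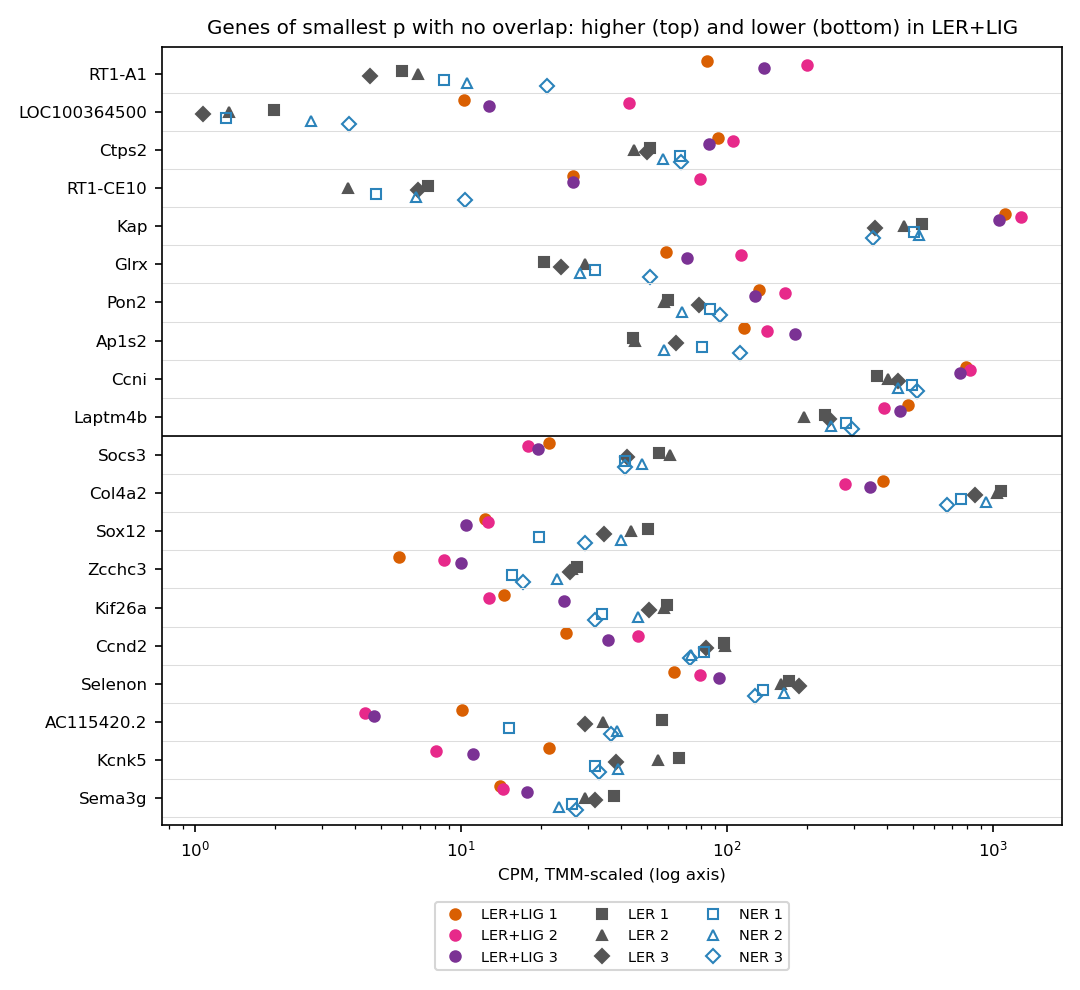
CPM after TMM scaling (horizontal axis, log) of the 10 genes higher and the 10 genes lower in LER+LIG with the smallest p among genes without overlap, 1 point per library. LER+LIG points lie beyond all LER and NER points for each of the 20 genes, with RT1-A1 at 83.7 to 200.1 CPM in LER+LIG libraries against 4.55 to 6.9 in LER libraries.

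RT1-A1 led the comparison. It encodes a heavy chain of the classical class I major histocompatibility complex, which carries peptides from inside the cell to the surface for CD8 T cells. Its level was 83.7, 200.1 and 136.9 CPM in LER+LIG 1, 2 and 3, against 5.98, 6.9 and 4.55 CPM in LER 1, 2 and 3 and 8.64, 10.5 and 21 CPM in NER libraries. All 3 LER+LIG libraries were several-fold above every other library. The log2 fold change was 4.59 ± 0.47 (SE; edgeR adjusted p = 0.0515, DESeq2 adjusted p = 3.58e-20), and edgeR called it with upper-quartile scaling, with no filter, with the length offset, without NER 3 and without LER+LIG 1.

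Other class I genes were examined after RT1-A1 had been seen. RT1-A2, a further classical heavy chain, was at 176.4, 262.0 and 134.9 CPM in LER+LIG libraries and 70.1, 27.4 and 49.8 CPM in LER libraries. RT1-CE10, in the class I region of the same complex, was at 26.3, 78.9 and 26.3 CPM in LER+LIG libraries and 7.47, 3.75 and 6.9 CPM in LER libraries. Neither gene overlapped between the groups, nor with NER libraries. B2m, the light chain that every class I heavy chain needs, was at 1768, 2485 and 1667 CPM in LER+LIG libraries and 821.4, 654.0 and 953.5 CPM in LER libraries, with NER 3 inside the LER+LIG range at 1801 CPM. Of 16 RT1 class I genes tested, 12 were higher and 4 lower, 5 were higher without overlap and 3 were called by DESeq2. RT1-N2, a nonclassical heavy chain, overlapped, with a log2 fold change of -0.83. So did Tap1, which pumps peptides into the endoplasmic reticulum, at 41.3, 77.3 and 61.4 CPM in LER+LIG libraries and 61.7, 49.8 and 42.8 CPM in LER libraries. RT1 genes are near-identical copies and differ between rats of different descent, so the counting may have split or moved reads among them, and their single values are uncertain.

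The sequences upstream of RT1-A1, RT1-A2 and B2m are shown because these 2 heavy chains and their light chain were each higher without overlap. They are the 250 bases before each annotated start, from RefSeq on the GRCr8 assembly, on the plus strand at chr20:4906959-4907208, chr20:4872621-4872870 and chr3:129549080-129549329. Capitals mark, on either strand, the letters GGGATTCCC, the core of the NF-kappa-B site of class I genes, TTTCACTTC, the core of their interferon-response element, and CCAAT; the motifs were chosen with the sequences in view.
RT1-A1: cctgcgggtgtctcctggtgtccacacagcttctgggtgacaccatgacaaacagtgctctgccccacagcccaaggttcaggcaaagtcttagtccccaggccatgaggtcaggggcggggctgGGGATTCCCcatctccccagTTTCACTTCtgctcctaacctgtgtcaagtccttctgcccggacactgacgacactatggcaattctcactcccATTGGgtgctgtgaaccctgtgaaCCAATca
RT1-A2: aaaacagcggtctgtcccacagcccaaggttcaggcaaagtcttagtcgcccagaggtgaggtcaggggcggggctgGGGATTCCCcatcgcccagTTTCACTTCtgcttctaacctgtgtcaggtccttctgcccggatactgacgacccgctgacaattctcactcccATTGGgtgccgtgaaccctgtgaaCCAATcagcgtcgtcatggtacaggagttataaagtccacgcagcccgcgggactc
B2m: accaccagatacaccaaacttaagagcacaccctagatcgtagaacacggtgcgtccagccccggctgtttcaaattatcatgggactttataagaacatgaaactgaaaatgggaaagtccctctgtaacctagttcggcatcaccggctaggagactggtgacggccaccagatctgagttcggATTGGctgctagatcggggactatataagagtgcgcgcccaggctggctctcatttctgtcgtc
GGGATTCCC stands 125 bases before the start of RT1-A1 and 173 bases before that of RT1-A2, and 0.272% of 33469 rat promoters of this length hold it. TTTCACTTC stands 105 and 154 bases before the starts of RT1-A1 and RT1-A2, with a match in 0.382% of promoters. The B2m window holds neither of these exact runs of letters, and other forms of the sites were not searched. It holds 1 CCAAT, on the minus strand, against 2 in each heavy chain window and a match in 34.0% of promoters. GGGATTCCC and TTTCACTTC are letters known from class I genes, and the heavy chain genes are near-identical copies. Their matches are therefore not independent, and no other class I window is shown. A match is a description of these letters, and binding was not measured.

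The remaining leading genes that were higher had smaller folds than RT1-A1. Kap, known as a kidney androgen-regulated protein in the mouse, was at 1109, 1273 and 1048 CPM in LER+LIG libraries and 538.9, 462.5 and 358.4 CPM in LER libraries (log2 fold change 1.33 ± 0.25, SE). Ctps2, a CTP synthase that feeds nucleotide supply, was at 92.6, 105.4 and 85.1 CPM in LER+LIG libraries and 51.3, 44.5 and 50 CPM in LER libraries (0.96 ± 0.18). For Kap and Ctps2 the spread within each group was small beside the distance between the groups. Glrx, a glutaredoxin that reduces protein thiols, averaged 80.8 ± 28.1 CPM in LER+LIG libraries and 24.4 ± 4.32 CPM in LER libraries (SD, n = 3 each), and Pon2, a paraoxonase of intracellular membranes, averaged 141.1 ± 20.5 CPM in LER+LIG libraries and 65.5 ± 11.2 CPM in LER libraries. Laptm4b, a lysosomal membrane protein, averaged 438.1 ± 44.4 CPM in LER+LIG libraries and 222.7 ± 25.2 CPM in LER libraries. Ccni, cyclin I, averaged 788.3 ± 34.6 CPM in LER+LIG libraries and 402.8 ± 36.0 CPM in LER libraries. Ap1s2, a subunit of the clathrin adaptor AP-1, was at 115.7, 141.3 and 179.3 CPM in LER+LIG libraries and 44.1, 44.9 and 64.3 CPM in LER libraries. LOC100364500 was at 10.2, 42.7 and 12.7 CPM in LER+LIG libraries and 1.97, 1.34 and 1.07 CPM in LER libraries. Each of these lay above all LER and NER libraries.

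Socs3 had the smallest p among genes that were lower. It was at 21.3, 17.8 and 19.4 CPM in LER+LIG libraries, against 55.5, 61.1 and 42 CPM in LER libraries and 41.1, 47.9 and 41.2 CPM in NER libraries. The 3 LER+LIG values sat close together and below every other library (log2 fold change -1.44 ± 0.21, SE; edgeR adjusted p = 0.334, DESeq2 adjusted p = 3.57e-06). Lif itself was at 8.56, 4.02 and 10.8 CPM in LER+LIG libraries and 20.2, 12.5 and 13.6 CPM in LER libraries, again below all 6 others (-0.98 ± 0.40; edgeR adjusted p = 0.378, DESeq2 adjusted p = 0.221). Of 14 genes tested in the LIF, gp130 and STAT3 pathway, 3 were higher and 11 lower, 4 were lower without overlap and none was higher without overlap (3 without LER+LIG 1, 2 with the length offset), with a median log2 fold change of -0.25 against 0.07 over all genes. The other two without overlap were the receptor chains. Lifr was at 3.24, 26.6 and 20.1 CPM in LER+LIG libraries and 26.7, 33.4 and 29.5 CPM in LER libraries, and Il6st, which encodes gp130, was at 111.2, 466.6 and 392.7 CPM in LER+LIG libraries and 502.8, 593.5 and 643.9 CPM in LER libraries. Both receptor chains were lowest in LER+LIG 1, by far. Without that library their log2 fold changes were -0.39 and -0.46, against -0.84 and -0.84 with it. Stat3 overlapped between the groups, at 394.6, 444.5 and 405.4 CPM in LER+LIG libraries and 508.9, 518.8 and 441.5 CPM in LER libraries. Il6r, the interleukin 6 receptor, also overlapped, with a log2 fold change of 0.80 ± 0.46.

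Basement membrane genes were lower as a group, and they were also lower in NER 3. Their list medians, relative to the LER mean, were -0.49, -0.95 and -0.73 in LER+LIG 1, 2 and 3. In NER 1, 2 and 3 they were -0.20, 0.04 and -0.54. Of 18 tested, 14 were lower and 4 higher, and 11 were lower without overlap, where 10.0% of all genes were; the median log2 fold change was -0.75. In a bulk sample, fewer cells of a type and less RNA per cell cannot be told apart, here and for each list below. Col4a2, the alpha 2 chain of type IV collagen, was at 383.6, 277.0 and 345.4 CPM in LER+LIG libraries and 1067, 1031 and 854.6 CPM in LER libraries. Its partner Col4a1 was at 1654, 632.9 and 830.8 CPM in LER+LIG libraries and 2182, 2178 and 1764 CPM in LER libraries. Col4a2 lay far below every LER and NER library, whereas Col4a1 in LER+LIG 1 came close to the lowest LER library and within the NER range of 1404 to 2105 CPM. The log2 fold changes were -1.55 ± 0.24 for Col4a2 (edgeR adjusted p = 0.334, DESeq2 adjusted p = 6.2e-07) and -0.97 ± 0.36 for Col4a1.

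**Figure D3:**
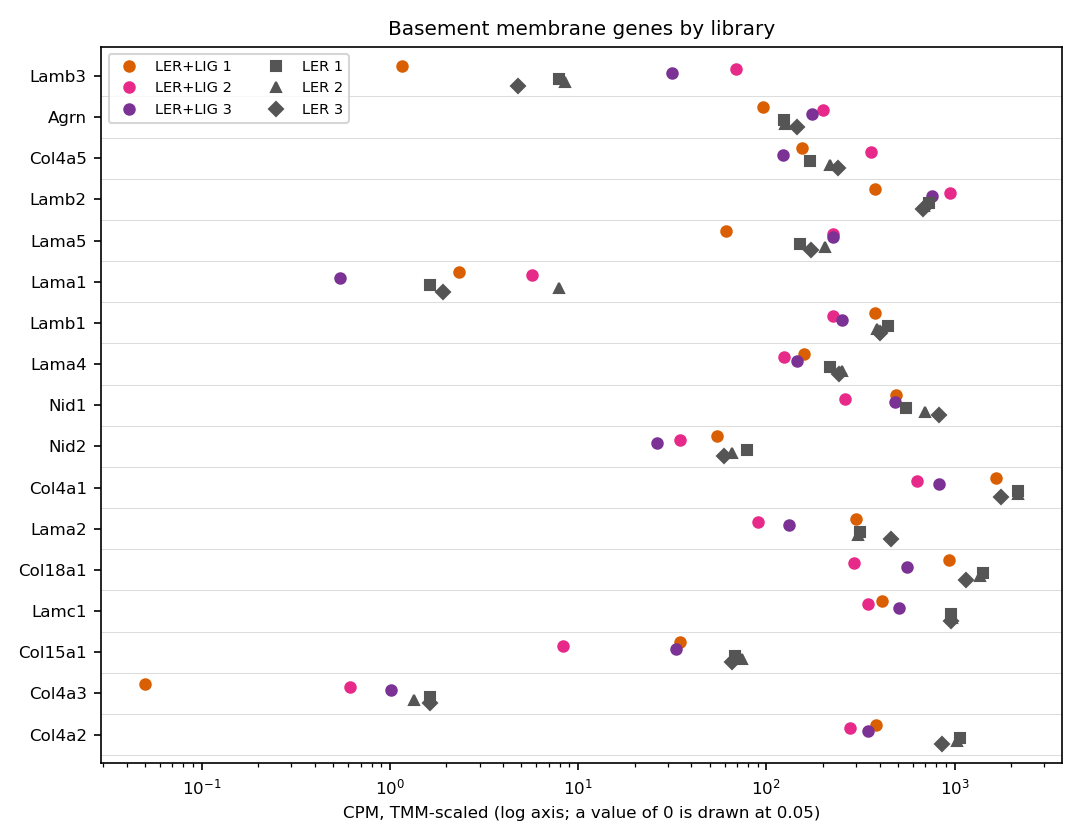
CPM after TMM scaling (horizontal axis, log) of 17 of the basement membrane genes tested, 1 point per LER+LIG and LER library, ordered by log2 fold change from highest to lowest. The 11 genes lower without overlap include Col4a2, at 277.0 to 383.6 CPM in LER+LIG libraries and 854.6 to 1067 CPM in LER libraries, while Lamb3 is high in LER+LIG 2 and 3.

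The stretch between the starts of Col4a1 and Col4a2 is shown because these partner genes are read in opposite directions from it. In RefSeq on GRCr8, Col4a1 lies on the plus strand and Col4a2 on the minus strand, and the 76 bases that separate their starts are chr16:84885521-84885596, printed on the plus strand with a match to GGGCGG, the GC box, in capitals on the minus strand.
Col4a1-Col4a2: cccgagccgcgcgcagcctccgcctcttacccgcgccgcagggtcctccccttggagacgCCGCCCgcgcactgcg
GGGCGG occurs on either strand in 18.1% of rat promoters over the 76 bases before the start. CCAAT was not found in these letters, and 13.0% of promoters hold it over that length.

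Among the laminins, Lamc1, the gamma 1 chain found in most laminins, was at 414.3, 345.2 and 509.0 CPM in LER+LIG libraries and 959.5, 963.8 and 953.5 CPM in LER libraries (log2 fold change -1.18 ± 0.29; DESeq2 adjusted p = 0.0121). Lama4, the alpha 4 chain of vessel and muscle laminin, was at 157.7, 123.9 and 145.8 CPM in LER+LIG libraries and 217.2, 252.0 and 244.0 CPM in LER libraries. Neither overlapped with LER or NER libraries. Lama2 and Lamb1 were lower without overlap, with log2 fold changes of -1.05 and -0.52. Nid1 and Nid2, the nidogens that link laminin to collagen IV, had log2 fold changes of -0.75 and -0.83, and Col15a1 and Col18a1, collagens of the basement membrane zone, had -1.46 and -1.14. Col4a3, a minor collagen IV chain, was low in every library, at up to 1.01 CPM in LER+LIG libraries and up to 1.64 CPM in LER libraries. The 4 higher genes each overlapped, and one of them stood at 0.01. Lamb3, a laminin beta chain of epithelia, split the LER+LIG group, at 1.16, 69.3 and 31.4 CPM in LER+LIG libraries, 7.88, 8.57 and 4.77 CPM in LER libraries and 61.2 CPM in NER 3. The 3 lower genes that overlapped had log2 fold changes of -0.42 to -0.01. With the length offset 5 of the 18 genes were lower without overlap, and they were Col4a2, Lamc1, Lama4, Col15a1 and Col4a3. With that offset 1 gene, Agrn, was higher without overlap, at a log2 fold change of 0.28, and the median of the list was -0.64. Without LER+LIG 1, 11 were lower and 5 higher without overlap, with a median of -0.89.

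Smooth muscle and vessel markers were also mostly lower. Of 21 smooth muscle markers 18 were lower, 4 without overlap, with a median of -0.49 and summed levels of 26944, 13910 and 16467 CPM in LER+LIG libraries and 22395, 29488 and 27021 CPM in LER libraries. Without LER+LIG 1, 20 were lower, 11 of them without overlap, at a median of -0.69, and without LER+LIG 2 the count without overlap was 7. Tagln, a marker of smooth muscle, stood at 1577 to 4902 CPM over the 6 libraries, so every library held smooth muscle transcripts, and LER+LIG 1 was within the LER range of the summed level. Cnn1, calponin, was at 1103, 352.5 and 652.3 CPM in LER+LIG libraries and 1163, 1848 and 1497 CPM in LER libraries. Of 17 endothelial markers 14 were lower and 5 lower without overlap, at a median of -0.32, and 9 were without overlap when LER+LIG 1 was left out. The 5 were Kdr and Flt1, the VEGF receptors, Eng, Erg and Sox17. Kdr was at 59, 51.7 and 78.8 CPM in LER+LIG libraries and 94.4, 89.1 and 101.6 CPM in LER libraries. Summed endothelial markers were 1513, 1200 and 1445 CPM in LER+LIG libraries, below the 1708 to 1890 CPM of LER libraries. NER 1, 2 and 3 had 1689, 1811 and 1363 CPM, so NER 3 lay within the LER+LIG range. Vegfa, the main ligand of those receptors, overlapped, at 94, 47.8 and 46.6 CPM in LER+LIG libraries and 154.1, 118.4 and 91.2 CPM in LER libraries. The part of these cell types in the basement membrane values was not tested.

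Interstitial collagens and crosslinkers had 22 of 26 genes lower, 4 without overlap, at a median of -0.37, and this depended on LER+LIG 2. That library had 2073 CPM of Col1a1, against 19657 and 21640 CPM in LER+LIG 1 and 3 and 14659 to 21654 CPM in LER libraries. Col12a1, a collagen bound to fibrils, was lower without overlap, at 290.5, 31.9 and 127.4 CPM in LER+LIG libraries and 357.8, 564.3 and 469.0 CPM in LER libraries. Without LER+LIG 2 the median of the list was -0.10. The count without overlap was 1 with the length offset, 12 without LER+LIG 1 and 10 without LER+LIG 3. Stromal fibroblast markers had the same split, whose list medians, relative to the LER mean, were 0.34, -1.67 and -0.44 for LER+LIG 1, 2 and 3.

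Among the remaining leading genes that were lower, Ccnd2, cyclin D2, was at 24.8, 46 and 35.7 CPM in LER+LIG libraries and 97.4, 98.4 and 82.9 CPM in LER libraries (log2 fold change -1.39 ± 0.24; DESeq2 adjusted p = 0.000165). Ccnd1, cyclin D1, which like cyclin D2 drives entry into S phase, was at 117.2, 107.1 and 118.0 CPM in LER+LIG libraries and 208.1, 234.0 and 174.6 CPM in LER libraries (-0.85 ± 0.19). Both D cyclins lay below all LER and NER libraries. Of 31 cell cycle genes tested, 11 were higher and 20 lower, with these 2 the only ones without overlap and a median of -0.05. Single libraries decided the list: without LER+LIG 1, 24 were lower, 10 of them without overlap, at a median of -0.39, whereas without LER+LIG 2, 21 were higher, at a median of 0.26. Mki67, the proliferation marker, was at 42.7, 15.5 and 71.4 CPM in LER+LIG libraries and 28.4, 33.8 and 78.1 CPM in LER libraries. Sox12, a SoxC transcription factor, was at 12.3, 12.6 and 10.4 CPM in LER+LIG libraries and 50.3, 43.4 and 34.4 CPM in LER libraries (-1.86 ± 0.30). Zcchc3, a cofactor of nucleic acid sensing in human and mouse cells, averaged 8.12 ± 2.12 CPM in LER+LIG libraries and 26.4 ± 0.829 CPM in LER libraries. Kif26a, a kinesin family member, averaged 17.2 ± 6.30 CPM in LER+LIG libraries and 56.0 ± 4.53 CPM in LER libraries. Selenon, a selenoprotein of the endoplasmic reticulum, averaged 78.5 ± 15.1 CPM in LER+LIG libraries and 172.6 ± 13.6 CPM in LER libraries. Kcnk5, a pore-forming potassium channel, averaged 13.5 ± 7.02 CPM in LER+LIG libraries and 53.1 ± 13.9 CPM in LER libraries. Sema3g, a secreted semaphorin, averaged 15.3 ± 2.01 CPM in LER+LIG libraries and 32.9 ± 4.22 CPM in LER libraries. AC115420.2 averaged 6.38 ± 3.19 CPM in LER+LIG libraries and 40.0 ± 14.8 CPM in LER libraries (SD, n = 3 each throughout).

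Among growth factor lists, 1 of 15 IGF system genes, 2 of 11 EGF family genes and 4 of 31 Wnt and BMP genes were lower without overlap. The background over all genes was 10.0%. Igf2, a fetal-type insulin-like growth factor, was at 12.9, 6.67 and 12.8 CPM in LER+LIG libraries and 32.8, 26.3 and 30.1 CPM in LER libraries, below all NER libraries too (-1.47 ± 0.31; DESeq2 adjusted p = 0.00298). It was the only IGF system gene without overlap, and 10 of the 15 were lower. When LER+LIG 2 was left out 7 of the 15 were lower without overlap, where 2722 of all genes were. Egfr and Erbb3, receptors of the EGF family, of which 7 of 11 genes were lower, had log2 fold changes of -1.19 ± 0.46 and -1.06 ± 0.41. Nrg1, a ligand of ErbB receptors, was higher without overlap, at 1.66, 4.29 and 22.9 CPM in LER+LIG libraries and 0.611, 0.536 and 0.782 CPM in LER libraries. Of 31 Wnt and BMP genes 21 were lower, 4 of them without overlap, among them Bmp7 (-0.87 ± 0.27) and Bmp4 (-1.65 ± 0.73). Without LER+LIG 1 the Wnt and BMP list had 16 lower, 11 of them without overlap, and a median of -0.06 against -0.25, and without LER+LIG 2 it had 26 lower, 10 without overlap. Mcam, an adhesion molecule of vessel walls, averaged 148.1 ± 27.7 CPM in LER+LIG libraries and 299.6 ± 6.94 CPM in LER libraries (SD, n = 3 each).

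**Figure D4:**
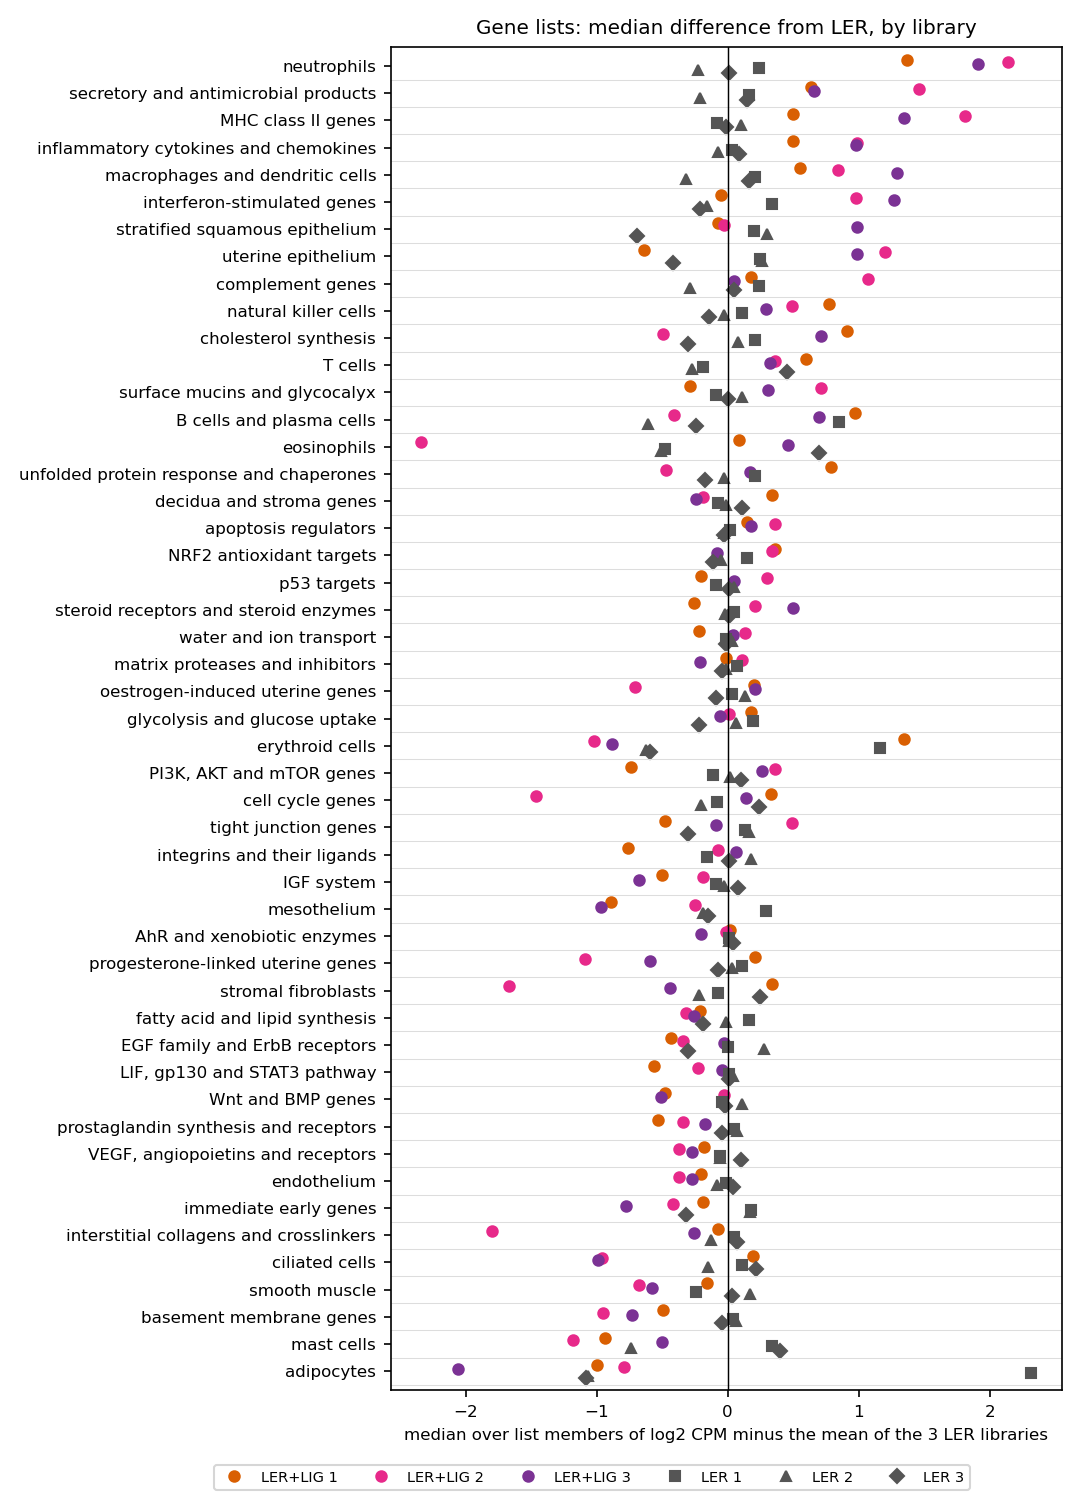
Median over the members of each of 49 gene lists of log2 CPM minus the LER mean (horizontal axis), 1 point per LER+LIG and LER library, with lists ordered by the median log2 fold change. For neutrophil, macrophage, MHC class II and cytokine lists all 3 LER+LIG points lie above the 3 LER points, for basement membrane genes all lie below, and for uterine epithelium LER+LIG 1 lies apart from LER+LIG 2 and 3.

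Among the immune lists, those of neutrophils, macrophages, MHC class II, cytokines and interferon response had mostly higher members. All 10 neutrophil markers tested were higher, 3 without overlap against 10.4% of all genes, at a median log2 fold change of 2.01. The 3 were Csf3r, Cxcr2 and Lcn2, and Lcn2 is also a product of the uterine epithelium, described with it below. Csf3r, the G-CSF receptor, was at 11.3, 39.8 and 29.1 CPM in LER+LIG libraries and 4.82, 5.62 and 5.33 CPM in LER libraries. Cxcr2, the receptor for neutrophil-attracting chemokines, was at 3.66, 6.19 and 3.4 CPM in LER+LIG libraries and 1.49, 1.07 and 0.569 CPM in LER libraries, and NER 3 reached 29.8 CPM for Csf3r but 1.52 CPM for Cxcr2. S100a8 and S100a9, calcium-binding proteins of neutrophils, overlapped and were highest in LER+LIG 1 and 2, S100a8 with 18.9, 22.8 and 4.95 CPM in LER+LIG libraries and 5.16, 2.28 and 1.56 CPM in LER libraries. The granule genes Mpo, Elane, Camp and Ngp did not pass the filter on low counts. Without LER+LIG 1 all 10 were again higher, 6 without overlap, with a median of 1.99, and with the length offset 5 were higher without overlap.

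Macrophage and dendritic cell markers had 22 of 24 higher and 12 higher without overlap, at a median of 1.02. Ms4a7, a macrophage membrane protein, was at 15.7, 23.8 and 15.2 CPM in LER+LIG libraries and 7.06, 4.29 and 7.47 CPM in LER libraries, above all NER libraries (1.54 ± 0.41; DESeq2 adjusted p = 0.0258). Fcer1g, the signalling chain of Fc receptors, was at 77.8, 130.9 and 145.9 CPM in LER+LIG libraries, 32.3, 26.5 and 40.9 CPM in LER libraries and 138.9 CPM in NER 3. Cd14, Adgre1, Lyz2, Fcgr1a, Fcgr2b, Fcgr3a, Tyrobp, Aif1, Clec9a and Spi1 completed the 12. The 2 lower ones were Cd163, a scavenger receptor of resident macrophages, which overlapped, and Flt3, a receptor of dendritic cell precursors, which did not. Summed markers were 1690, 2595 and 3269 CPM in LER+LIG libraries and 1287, 951.9 and 1352 CPM in LER libraries, with 4703 CPM in NER 3. NER 3 alone exceeded every LER+LIG library in that sum.

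MHC class II genes, which present peptides to CD4 T cells, had 6 of 10 higher without overlap and 1 lower. RT1-Ba, the alpha chain of the RT1-B molecule, was at 100.8, 420.4 and 117.5 CPM in LER+LIG libraries, 10.3, 24.1 and 16.2 CPM in LER libraries and 18.2, 25.9 and 89.4 CPM in NER libraries (3.66 ± 0.79; DESeq2 adjusted p = 0.000165). RT1-Db1, a beta chain, was at 105.8, 343.6 and 105.5 CPM in LER+LIG libraries and 37.8, 35.4 and 35 CPM in LER libraries, with 111.1 CPM in NER 3. The invariant chain Cd74 was at 569.3, 1495 and 754.6 CPM in LER+LIG libraries and 413.7, 446.6 and 491.1 CPM in LER libraries, with 1755 CPM in NER 3. The summed list was at 1159, 3216 and 1496 CPM in LER+LIG libraries, 678.9, 759.1 and 768.5 CPM in LER libraries and 2947 CPM in NER 3, which exceeded LER+LIG 1 and 3. RT1-DOb, a brake on peptide loading, was the lower one, at 0.665 to 1.55 CPM in LER+LIG libraries and 2.13 to 2.48 CPM in LER libraries. Near-identical copies apply to these chains as to class I.

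Cytokines and chemokines had 26 of 28 higher and 9 higher without overlap, at a median of 1.22. Il1b, interleukin 1 beta, was at 14.2, 17.2 and 12.5 CPM in LER+LIG libraries and 5.3, 4.75 and 5.76 CPM in LER libraries (1.47 ± 0.33; DESeq2 adjusted p = 0.00641). Il18, a related cytokine, was at 9.55, 12.6 and 10.2 CPM in LER+LIG libraries and 4.35, 3.68 and 3.98 CPM in LER libraries. Casp1, the protease that matures both, averaged 55.0 ± 19.7 CPM in LER+LIG libraries and 21.9 ± 2.14 CPM in LER libraries. Cxcl16, a chemokine for T and natural killer T cells, was at 78.8, 171.5 and 83.8 CPM in LER+LIG libraries and 42, 39.2 and 46.5 CPM in LER libraries. Cxcl6, a neutrophil chemokine, spread widely, at 3.16, 363.8 and 12.8 CPM in LER+LIG libraries and 1.56, 0.87 and 0.427 CPM in LER libraries. Nfkbia, the inhibitor induced by NF-kappa-B, was at 94.8, 127.8 and 133.2 CPM in LER+LIG libraries and 67.2, 67.4 and 67 CPM in LER libraries. NER 3 lay within the LER+LIG range for Il1b, Il18, Cxcl6 and Nfkbia.

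Interferon-stimulated genes had 32 of 34 higher and 7 higher without overlap, at a median of 0.81, and LER+LIG 1 stood apart. The list median of LER+LIG 1 was -0.05 from the LER mean, against 0.98 in LER+LIG 2 and 1.27 in LER+LIG 3. Without LER+LIG 1, 26 were higher without overlap. Ifi44 and Ifitm3, an antiviral membrane protein, were higher in all 3 LER+LIG libraries: Ifi44 was at 70.1, 85.9 and 70.4 CPM in LER+LIG libraries and 40.5, 23.4 and 43.5 CPM in LER libraries. Natural killer cell markers had 14 of 15 higher, 5 of them without overlap, and 1 lower without overlap, with Ncr1, the activating receptor NKp46, at 2.49, 2.93 and 3.25 CPM in LER+LIG libraries and 0.747, 1 and 0.427 CPM in LER libraries. Their summed level was 111.8 to 126.0 CPM in LER+LIG libraries and 64.6 to 73.4 CPM in LER libraries, and NER 3, at 197.7 CPM, exceeded every LER+LIG library. Without LER+LIG 3, 8 natural killer markers were higher without overlap. T cell markers had 12 of 16 higher with 3 without overlap, or 5 without LER+LIG 1, and B cell, eosinophil and erythroid lists had 0 without overlap in either direction. Mast cell markers had 6 of 7 lower and 3 without overlap, among them Gata2, which is described below with the progesterone-linked genes. Their list medians, relative to the LER mean, overlapped between the groups. They were -0.94, -1.18 and -0.50 in LER+LIG libraries and 0.34, -0.74 and 0.40 in LER libraries. Tpsab1, mast cell tryptase, had no counts in any LER+LIG library and 1.15, 0.469 and 1.21 CPM in LER libraries, at least 12.5-fold lower against a floor of 3 counts over the LER+LIG group. Kit, a receptor of mast cells and other cells, overlapped at 18.4, 92.2 and 84.5 CPM in LER+LIG libraries and 22.5, 22.6 and 24.9 CPM in LER libraries.

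Products of the uterine epithelium gave some of the widest differences, with the high values in LER+LIG 2 and 3. C3, complement component 3 and an oestrogen-induced secretion of the rat uterus, was at 18.9, 13057 and 2174 CPM in LER+LIG libraries, 18.5, 8.64 and 12.8 CPM in LER libraries and 14.1, 25.4 and 4350 CPM in NER libraries. LER+LIG 1 sat at the level of the LER libraries, and NER 3 sat with LER+LIG 2 and 3. The list of oestrogen-induced uterine genes went both ways. Of 25 tested, 13 were higher and 12 lower, with 4 and 3 without overlap and a median log2 fold change of 0.09. Lpo, lactoperoxidase, was at 0.415, 1008 and 135.2 CPM in LER+LIG libraries, 0.272, 0 and 0.142 CPM in LER libraries and 310.8 CPM in NER 3. Slc26a4, the anion exchanger pendrin, was at 4.24, 496.6 and 107.5 CPM in LER+LIG libraries, 2.72, 4.29 and 3.77 CPM in LER libraries and 193.1 CPM in NER 3. The same arrangement held for Cftr, the chloride channel, for Itgb6, an epithelial integrin, and for Muc4, a membrane mucin. Cftr was at 0.914, 112.2 and 129.0 CPM in LER+LIG libraries and 0 to 0.475 CPM in LER libraries. Itgb6 was at 2.41, 138.2 and 43.3 CPM in LER+LIG libraries and 1.64 to 2.99 CPM in LER libraries. Muc4 was at 0.665, 1068 and 188.4 CPM in LER+LIG libraries and 5.69 to 10.2 CPM in LER libraries. DESeq2 called C3, Lpo, Slc26a4, Cftr and Itgb6 on these values and did not call Muc4. Without LER+LIG 2, the log2 fold changes of C3 and Lpo were 6.34 and 8.84, against 8.57 and 11.35 with it.

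**Figure D5:**
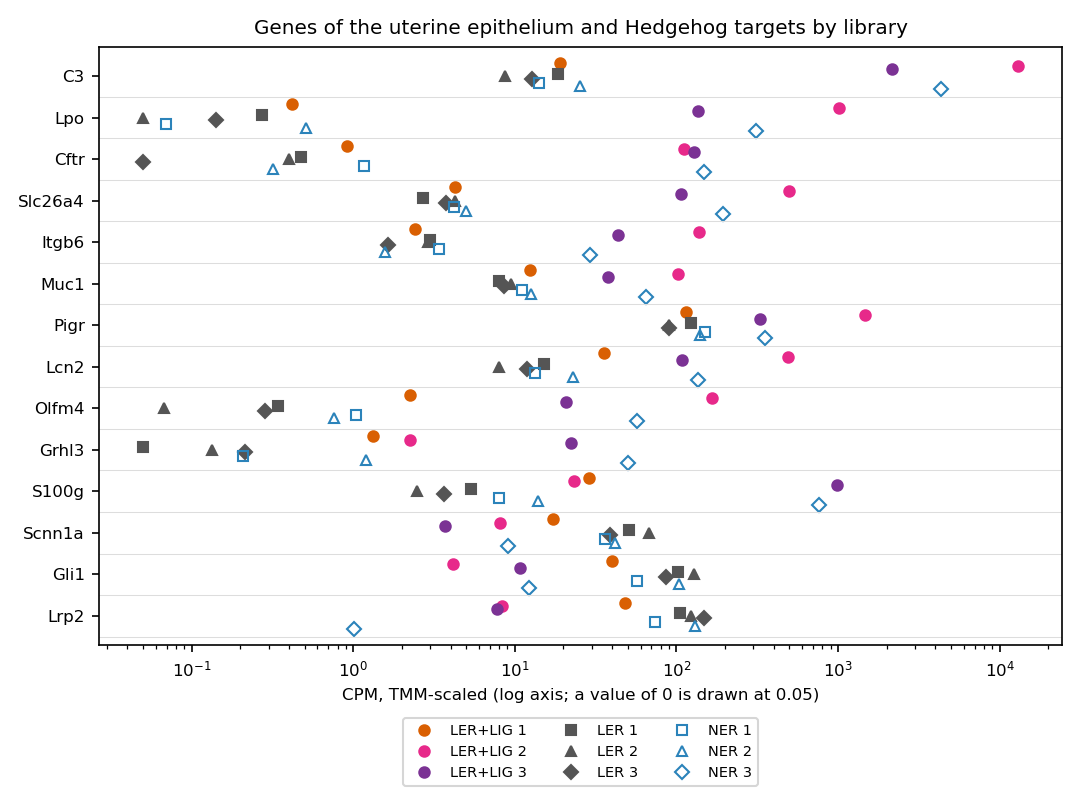
CPM after TMM scaling (horizontal axis, log) of 14 genes of the uterine epithelium and of Hedgehog signalling in each of the 9 libraries. For C3, Lpo, Cftr and Slc26a4, LER+LIG 2, LER+LIG 3 and NER 3 lie between 107.5 and 13057 CPM and the other 6 libraries between 0 and 25.4 CPM.

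A second set of epithelial genes was higher in LER+LIG 1 as well. Lcn2, the iron-binding antimicrobial protein lipocalin 2, was at 35.7, 490.3 and 108.4 CPM in LER+LIG libraries and 15.1, 7.97 and 11.9 CPM in LER libraries. Olfm4, a secreted glycoprotein, was at 2.24, 167.0 and 20.7 CPM in LER+LIG libraries and 0.34, 0.067 and 0.285 CPM in LER libraries. Muc1, the surface mucin that is lost from the rodent uterine lumen before attachment, was at 12.4, 101.6 and 37.8 CPM in LER+LIG libraries and 7.94, 9.51 and 8.61 CPM in LER libraries. In each of the 3 genes the lowest LER+LIG library was LER+LIG 1 and NER 3 lay within the LER+LIG range. S100g, the calcium-binding calbindin-D9k of the rat uterus, was at 28.8, 23.1 and 987.1 CPM in LER+LIG libraries, 5.36, 2.48 and 3.63 CPM in LER libraries and 759.1 CPM in NER 3. Grhl3, a transcription factor of surface epithelia, was at 1.33, 2.25 and 22.2 CPM in LER+LIG libraries, at most 0.213 CPM in LER libraries and 50.3 CPM in NER 3. LOC681325 was at 4.4, 4.08 and 9.43 CPM in LER+LIG libraries and 0.142 to 0.611 CPM in LER libraries. Of 17 secretory and antimicrobial products 15 were higher and 5 without overlap, at a median of 1.42. When LER+LIG 3 was left out 10 were higher without overlap, where 2151 of all genes were. Without LER+LIG 2 the median was 0.90.

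Epithelial marker levels split in the same way. Of 20 markers 14 were higher, with 1 higher and 2 lower without overlap; 13 were higher without overlap when LER+LIG 1 was left out, and 3 with the length offset. Summed, the markers were 946.1, 3808 and 3467 CPM in LER+LIG libraries, 1685, 1687 and 1024 CPM in LER libraries and 5019 CPM in NER 3. Krt8, a keratin of simple epithelium, was at 67.9, 584.0 and 611.3 CPM in LER+LIG libraries and 164.6, 138.9 and 66.2 CPM in LER libraries. Epcam, present on all uterine epithelium, did not split, at 197.2, 393.0 and 227.5 CPM in LER+LIG libraries and 336.3, 318.9 and 214.2 CPM in LER libraries. The part of epithelial content in the values of the secreted products was not tested.

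The epithelial sodium channel, which removes fluid from the lumen, was lower. Scnn1a, its alpha subunit, was at 17.3, 8.1 and 3.71 CPM in LER+LIG libraries and 51.1, 67.2 and 38.8 CPM in LER libraries (-2.43 ± 0.66; DESeq2 adjusted p = 0.0137). Scnn1b and Scnn1g, the beta and gamma subunits, were lower without overlap, with log2 fold changes of -1.21 and -1.91, and so was Fxyd4, a regulator of the sodium pump, at 23.9, 9.73 and 7.96 CPM in LER+LIG libraries and 97.4, 65.6 and 32.1 CPM in LER libraries. All 3 channel subunits were lower in LER+LIG 1 as well as in LER+LIG 2 and 3, and NER 3 had 9.05 CPM of Scnn1a. Of 22 water and ion transport genes 12 were higher and 10 lower, with 2 and 4 without overlap, or 6 and 6 without LER+LIG 1. Sgk1, a kinase that keeps the sodium channel at the surface, was higher, at 78.8, 89.2 and 74.3 CPM in LER+LIG libraries and 55.2, 53.4 and 51 CPM in LER libraries.

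Of 27 progesterone-linked genes 16 were lower, 6 lower without overlap and 1 higher without overlap, at a median of -0.19. LER+LIG 1 went the other way, with a list median of 0.21 relative to the LER mean, against -1.09 and -0.59 in LER+LIG 2 and 3. Without LER+LIG 1, 19 were lower, 15 of them without overlap, and the median was -0.71. Gli1, the transcriptional readout of Hedgehog in the stroma, was at 40.1, 4.15 and 10.7 CPM in LER+LIG libraries, 103.0, 129.2 and 86.5 CPM in LER libraries and 12.3 CPM in NER 3. Ptch1, the Hedgehog receptor and also a target, was at 75.8, 58.7 and 42.1 CPM in LER+LIG libraries and 136.9, 185.8 and 115.1 CPM in LER libraries. Ihh, the ligand, overlapped, at 37.5, 5.38 and 1.24 CPM in LER+LIG libraries and 66.3, 54.6 and 19.8 CPM in LER libraries. Sox17, which drives Ihh in the mouse epithelium and also marks arteries, was at 137.2, 94 and 111.9 CPM in LER+LIG libraries and 329.3, 325.3 and 186.6 CPM in LER libraries (-1.29 ± 0.30; DESeq2 adjusted p = 0.0128). Gata2, a partner of the progesterone receptor, was at 82.9, 108.8 and 90.2 CPM in LER+LIG libraries and 156.3, 162.2 and 158.2 CPM in LER libraries (-0.76 ± 0.20). Lrp2, the endocytic receptor megalin, was at 47.8, 8.37 and 7.73 CPM in LER+LIG libraries and 104.6, 122.7 and 148.7 CPM in LER libraries. Msx1, a homeobox gene of receptivity, and Id2 were the other two without overlap, with log2 fold changes of -0.55 and 0.45. Pax8, a glandular transcription factor, was lower without overlap, at 41.2, 21.1 and 19.4 CPM in LER+LIG libraries and 70.4, 81.3 and 54.2 CPM in LER libraries. NER 3 lay within the LER+LIG range for Sox17, at 126.1 CPM, and for Pax8, at 35 CPM. For Gata2, NER 1 lay within that range, at 106.4 CPM.

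The steroid receptors did not separate the groups. Esr1, oestrogen receptor alpha, was at 186.4, 256.5 and 399.8 CPM in LER+LIG libraries and 231.6, 290.4 and 287.1 CPM in LER libraries. Pgr, the progesterone receptor, was at 40.4, 59.3 and 312.3 CPM in LER+LIG libraries and 131.7, 213.1 and 172.0 CPM in LER libraries. Among LER+LIG and LER libraries, LER+LIG 3 had the most of both receptors and LER+LIG 1 the least. NER 3 had 335.8 CPM of Esr1 and 431.9 CPM of Pgr, the latter above LER+LIG 3. Among other genes linked to receptivity, Itgb3 and Itgav, the chains of the attachment integrin alpha V beta 3, overlapped, with log2 fold changes of -0.54 ± 0.62 and -0.18 ± 0.47. Hand2 and Bmp2, which act in the stroma, had 0.28 ± 0.79 and 0.49 ± 0.50. Hoxa11, a homeobox gene of the uterus, had -1.52 ± 0.78 at no more than 10.6 CPM in any library, and Hoxa10 had too few counts to be tested. Ptgs2, the inducible cyclooxygenase, was at 4.15, 5.17 and 23.1 CPM in LER+LIG libraries and 3.26, 6.29 and 5.26 CPM in LER libraries. At this depth and spread, none of these could be told from LER. Ptges and Ptgfr, an enzyme and a receptor of the prostaglandin pathway, were lower without overlap: Ptges was at 3.74, 0.885 and 0.619 CPM in LER+LIG libraries and 10.2, 8.57 and 6.33 CPM in LER libraries. In NER 3, Ptges was at 0.652 CPM, within the LER+LIG range, and Ptgfr was at 2.39 CPM.

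Stress and redox genes gave a few narrow differences. Dnajb9, a chaperone of the endoplasmic reticulum induced by the unfolded protein response, was at 144.0, 77.9 and 89.5 CPM in LER+LIG libraries and 43.8, 37.5 and 44.5 CPM in LER libraries, above all NER libraries (1.31 ± 0.27; DESeq2 adjusted p = 0.00739). Herpud1, of the same response, was at 147.0, 151.9 and 107.5 CPM in LER+LIG libraries and 91.7, 68 and 85.6 CPM in LER libraries. These were the 2 members without overlap among 29, a smaller share than the 10.4% of all genes that were higher without overlap. Of the 29, 22 were higher, and without LER+LIG 1 the list turned, with 11 higher and a median of -0.28 against 0.26. Prdx1, a peroxiredoxin under NRF2 control, averaged 526.4 ± 187.4 CPM in LER+LIG libraries and 272.9 ± 25.5 CPM in LER libraries. Gclm, a subunit of the enzyme that limits glutathione synthesis, averaged 108.1 ± 53.9 CPM in LER+LIG libraries and 38.4 ± 6.97 CPM in LER libraries (SD, n = 3 each). Of 21 NRF2 targets 15 were higher, 4 without overlap, and this count was 2 with the length offset and 8 without LER+LIG 3. Of 24 immediate early genes 19 were lower and 3 were lower without overlap, near the share of 10.0% of all genes. That count was 6 with the length offset and 11 without LER+LIG 1. Mitochondrially encoded genes had 11 of 12 higher and 6 without overlap, or 4 with the length offset. Mt-co2 was at 8458, 5581 and 5930 CPM in LER+LIG libraries and 1985, 3030 and 3487 CPM in LER libraries. In NER libraries it was at 5518, 3333 and 2524 CPM. Summed, the list was at 46921, 52938 and 46147 CPM in LER+LIG libraries and 49770, 31765 and 27856 CPM in NER libraries. NER 1 thus lay within the LER+LIG range of the sum.

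Lipid genes contained some of the widest gaps among lower genes. Cidec, a lipid droplet protein of fat cells, had no counts in LER+LIG libraries and 61.7, 2.54 and 1.07 CPM in LER libraries, at least 287.8-fold lower against the floor of 3 counts over the LER+LIG group, with most of that mean from LER 1. Adipocyte markers as a whole summed to 246.4, 425.8 and 179.5 CPM in LER+LIG libraries and 1920, 242.6 and 266.1 CPM in LER libraries, so LER 1 alone was high; without it the list median was -0.25, against -1.59 with it. Acss2 and Acsl4, which activate acetate and long-chain fatty acids, were lower without overlap, Acss2 at 54.2, 10.3 and 14.2 CPM in LER+LIG libraries and 110.5, 102.0 and 99.5 CPM in LER libraries. NER 3 lay within the LER+LIG range for both, at 22.7 CPM for Acss2 and 104.1 CPM for Acsl4. Cholesterol synthesis genes had 20 of 24 higher but 1 without overlap, and a median of 0.06 without LER+LIG 1 against 0.49 with it; 14 were higher without overlap when LER+LIG 2 was left out.

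The widest gaps among lower genes were otherwise in genes near 0 in LER+LIG libraries. Nr1i2, the pregnane X receptor that senses steroids and drugs, was at 0, 0 and 0.773 CPM in LER+LIG libraries, 14.7, 16.3 and 25.5 CPM in LER libraries and 16.4, 0 and 26.1 CPM in NER libraries. Slc5a5, the sodium iodide symporter, was at 0, 0.34 and 0 CPM in LER+LIG libraries and 7.54, 21.9 and 12.2 CPM in LER libraries. Frem3, an extracellular matrix protein, was at 0.332, 0 and 0.0773 CPM in LER+LIG libraries and 6.72, 14 and 7.54 CPM in LER libraries. LOC103693323 was at 1.83, 0.476 and 0 CPM in LER+LIG libraries and 14.1, 13.1 and 13 CPM in LER libraries. Each of the 4 was also at 0 or near 0 in at least 1 NER library: NER 2 for Nr1i2, and NER 3 for Slc5a5, Frem3 and LOC103693323.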

How the data were processed

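Messenger RNA was selected with poly-T beads and copied with random hexamers, per the labels' protocols. The authors deposited 1 table of read counts per gene for the 9 libraries, per the file headers, with FPKM values beside them, from which, with the counts, each gene's length was computed; FPKM entered no test. Strand setting, genome build, aligner and read counter are not stated in the sources used, so reads of overlapping and antisense genes could not be told apart. The authors' own fold changes and calls were not used. Of 22250 rows, 17844 had counts, and 8 rows without a symbol, at most 0.00306% of the counts of a library, stayed out. Groups came from the sample titles. Genes were filtered with filterByExpr and scaled by TMM, and edgeR's quasi-likelihood test (edgeR 4.0.16, limma 3.58.1, R 4.3.3) was fitted to all 9 libraries, which share 1 estimate of the spread, with Benjamini-Hochberg adjustment over 14229 genes and a threshold of 0.05. DESeq2 1.42.0 was an alternative. The procedure was tested on simulated data. With 3 libraries a group, the spread between them limits the precision. The SE of a log2 fold change was computed from edgeR's test, as its absolute value divided by the square root of the F statistic. Levels are CPM after TMM scaling, and levels of different genes are not comparable per length.

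Of 1145 entries in 51 gene lists, 1101 were matched by symbol and 44 were not. The members and lists were chosen with earlier results of these data known. The naming rule took called genes, then the smallest p to 10 in each direction among genes without overlap at a mean of at least 2 CPM, the 5 further genes with the widest gap, up to 3 members of each list with the smallest p, and 14 genes linked to receptivity. Genes named beyond it, including list members given to describe a whole pathway, were chosen after their values were seen. Alternatives were RLE and upper-quartile scaling, no filter, DESeq2, the 6 compared libraries alone, a replicate block, a threshold of 0.1, leaving out each library, and, chosen after seeing the data, an offset for gene length. Values of 2 list members are not reported here; they stay in their lists' counts and medians.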

Additional observations from a re-analysis of the deposited data

How the results depend on the processing

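The count of genes called higher by edgeR was 0, and it was 1 with upper-quartile scaling, with no filter, at an adjusted p under 0.1, with the gene length offset chosen after seeing the data, and without NER 3 or LER+LIG 1; that gene was RT1-A1 each time, with adjusted p of 0.0165 to 0.0515 over these settings. The count called lower was 0, and it was 1 without LER+LIG 3, namely Gdf7 (log2 fold change -2.65, adjusted p = 0.0357). Leaving out 1 library at a time gave 0 to 1 in each direction. DESeq2 called 148 higher and 151 lower. The labels give libraries a shared replicate number and do not state whether it marks a pairing. Deviations of same-numbered LER+LIG and LER libraries correlated at 0.19, 0.107 and 0.0738, each the highest for its library. These values do not decide whether the numbers mark a pairing. With the replicate block 0 genes were called higher and 0 lower. Genes above all LER libraries numbered 1480, and 1586 to 3275 with 1 library left out (3275 without LER+LIG 1, 2443 without LER+LIG 2). Genes below numbered 1430, and 1764 to 3355 (3355 without LER+LIG 1, 2722 without LER+LIG 2, 2155 without LER+LIG 3); fewer libraries overlap less often by construction. Among 141 named genes, the sign of the log2 fold change turned in 10 with a library left out. With each library left out in turn, the values ran over -0.14 to 0.89 for Bmp2, -0.77 to 0.14 for Col1a1, -0.47 to 0.07 for Epcam, -0.29 to 0.25 for Esr1, -0.79 to 0.62 for Hand2, -0.55 to 0.21 for Itgav, -0.69 to 0.47 for Mki67, -1.79 to 0.07 for Pgr, -0.08 to 1.48 for Ptgs2 and -0.02 to 0.40 for Tap1. It also turned for Esr1 with upper-quartile scaling (-0.01) and for Mki67 with the length offset (0.02). Apart from the construction named, the cause was not tested. Over all settings the median of all genes shifted by at most 0.06 on the log2 scale.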
